A study of Nannochloropsis oceanica strain IMET1 with 15 samples.

Results

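The Rubisco genes of *Nannochloropsis oceanica* IMET1, a unicellular marine microalga, were followed across 15 RNA-seq libraries. They are 3 of the 10493 genes with a value in the deposited matrix: NO01G02280, the nuclear gene that the study's heat map marks as Rubisco, and cp-rbcL and cp-rbcS, the chloroplast genes named for the large and the small subunit. The files give no product name for NO01G02280, so its identity rests on that mark. All cultures were grown under high light and taken on day 7, in 3 biological replicates for each of 5 groups. The groups were the wild type (WT) and 4 mutant lines: NO08G00280, the study's candidate DNA 6mA methyltransferase, is knocked out in M1 and M2, and NO06G02500, an AlkB-family gene treated as a candidate demethylase, is knocked out in M3 and M4. Each line is 1 clone made with CRISPR–Cas9 from a vector with a zeocin resistance gene, which the WT did not receive. A p-value here therefore measures the spread between cultures of a clone, and line and knockout cannot be told apart within a single line.

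Rubisco joins CO2 to ribulose-1,5-bisphosphate and so makes the first product of the Calvin cycle. In algae with a plastid of red algal descent, the large and the small subunit are both encoded in the chloroplast, whereas in land plants the small subunit gene has moved to the nucleus. The large subunit carries the catalytic site, and an activase such as CbbX in the red lineage frees blocked sites.

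IMET1v2, the study's assembly, is of the nuclear genome, and the chloroplast genes lie on a separate sequence. NO01G02280 runs on the minus strand of chromosome 1 from 594696 to 596618 (1923 bp), cp-rbcL on the plus strand of the chloroplast genome from 90938 to 92401 (1464 bp), and cp-rbcS on the same strand from 92610 to 92879 (270 bp). The chloroplast genes thus follow each other in the same direction with 208 bases between them. None of the 3 genes overlaps another annotated gene. Values are TMM-normalized TPM, read abundances corrected for gene length and library size and then scaled by 1 factor per library. Levels can be set side by side for genes of the same genome. A nuclear and a chloroplast level also depend on how much RNA of each genome a library kept, so the ranks below describe the libraries only. NO01G02280 had a mean of 745 over the 15 libraries and ranked 149th of 10493 genes. The chloroplast genes ranked 8481st (cp-rbcL, mean 7.95) and 9092nd (cp-rbcS, mean 2.99).

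All 125 chloroplast genes together made up 0.0169% to 0.0580% of the summed values of a library (median 0.0329%), so both chloroplast members were read from few fragments. Whether RNA was selected before library preparation is not given in the sources used here. Depth, taken as the ratio of coverage to FPKM, ranged from 4.69 to 6.17 over the libraries (median 5.26). Mean coverage of cp-rbcL was 6.34 to 36.9 reads per base (median 15.9), which equals the bases of 61.9 to 360.4 reads of 150 bases. That of cp-rbcS equals the bases of 4.80 to 21.1 reads (median 11.3), a depth at which single libraries can differ by counting alone, and no interval can be given without counts. Coverage of NO01G02280 was 1282 to 2162 reads per base.

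The chloroplast share itself differed between the groups, and it has to be read beside each chloroplast value. It was 0.0246%, 0.0369% and 0.0377% in the WT, 0.0332%, 0.0329% and 0.0343% in M1, 0.0202%, 0.0201% and 0.0169% in M2, 0.0320%, 0.0302% and 0.0265% in M3, and 0.0431%, 0.0580% and 0.0501% in M4. Every M2 library lay below, and every M4 library above, all libraries of the other groups. The share differed over the 5 groups in an exact permutation F test (p = 1.58e-04, adjusted p = 7.92e-04 over 5 quantities). In bulk RNA, fewer chloroplasts, fewer transcripts in each and a smaller fraction kept in the library cannot be told apart. The mitochondrial share, measured the same way, was highest in M4 as well (0.0153% to 0.0170%), against 0.00840% to 0.0132% in the other groups (exact permutation F test, p = 3.25e-04, adjusted p = 8.12e-04).

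**Figure D1:**
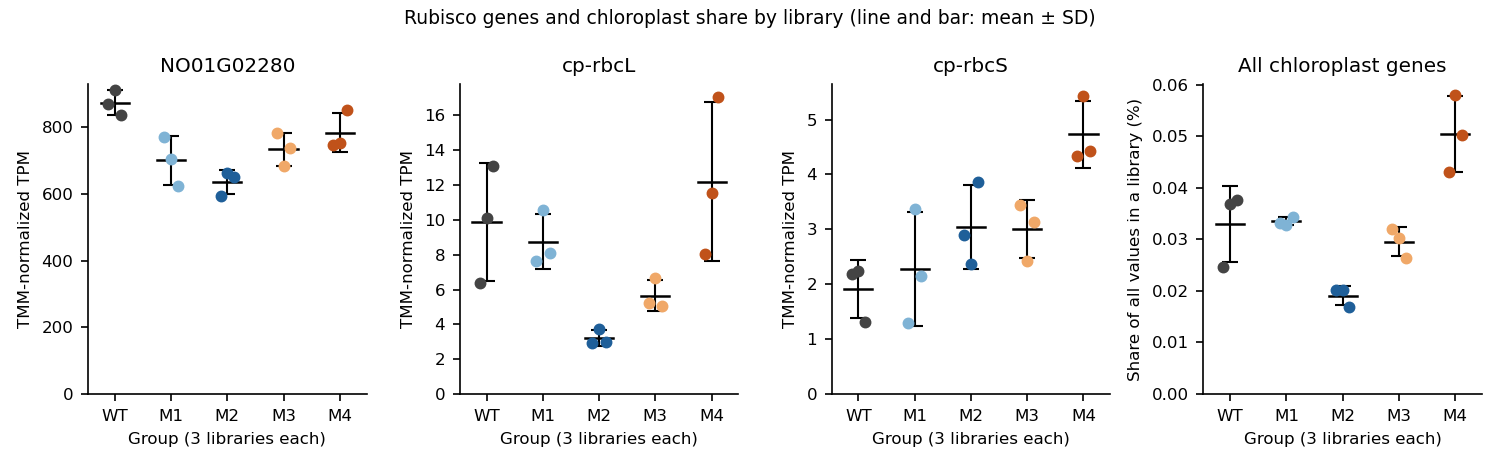
TMM-normalized TPM of NO01G02280, cp-rbcL and cp-rbcS (first 3 panels) and the share of all chloroplast genes in percent of the summed values of a library (last panel), for 3 libraries in each of the 5 groups. Points are libraries, and the line and bar are the mean ± SD: M2 holds the lowest group mean of NO01G02280 (636), cp-rbcL (3.24) and the chloroplast share, and M4 the highest of cp-rbcS (4.73).

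cp-rbcL, the gene of the catalytic subunit, fell in M2. Its TMM-normalized TPM was 6.40, 10.1 and 13.1 in the WT, 7.62, 10.6 and 8.075 in M1, and 2.94, 3.76 and 3.02 in M2. In the NO06G02500-knockout lines it was 5.205, 6.67 and 5.065 in M3 and 8.03, 11.5 and 17.1 in M4. All M2 libraries lay below every other library, while the other groups overlapped with the WT. The mean in M2 (3.24 ± 0.454, SD, n = 3) was 32.8% of that in the WT (9.88 ± 3.36). On the log2(value + 1) scale the change in M2 was -1.32 (SE 0.27, adjusted p = 0.00322 by limma, 95% interval -1.91 to -0.72). It passed the test with each WT and M2 library left out in turn, at -1.57 to -1.10. In M1 the log2-fold change of cp-rbcL was -0.12 (interval -0.72 to 0.48, adjusted p = 0.869). In M3 it was -0.67 (interval -1.27 to -0.07, adjusted p = 0.198) and in M4 0.27 (interval -0.32 to 0.87, adjusted p = 0.626), and none of these passed.

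The clones of the same knockout did not carry cp-rbcL at the same level. M2 was lower than M1 by -1.20 on the log2 scale (SE 0.27, adjusted p = 0.00815 by limma), and M4 was higher than M3 by 0.94 (SE 0.27, adjusted p = 0.0264). The latter call ended without M3 replicate 1 (0.90), M3 replicate 3 (0.88), M4 replicate 2 (0.95) or M4 replicate 3 (0.69). The largest distance was that of M4 from M2, 1.59 (adjusted p = 5.96e-04). In the order of the means, M4, WT, M1, M3 and M2, no neighbours passed the test (adjusted p = 0.626, 0.869, 0.319 and 0.118).

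cp-rbcS, the gene of the small subunit, did not show the fall of cp-rbcL in M2. It was read from the bases of only 4.80 to 21.1 reads a library, which limits every comparison of it. Its TMM-normalized TPM was 2.18, 2.25 and 1.31 in the WT, 1.295, 3.37 and 2.16 in M1, and 2.90, 2.36 and 3.86 in M2. In M3 it was 3.44, 2.42 and 3.14, and in M4 4.34, 5.43 and 4.42. All M4 libraries lay above every other library, and the M2 and M3 libraries all lay above those of the WT. The mean in M4 (4.73 ± 0.607, SD, n = 3) was 247% of that in the WT (1.91 ± 0.523). The rise in M4 was 0.99 on the log2(value + 1) scale (SE 0.25, adjusted p = 0.0436 by limma, 95% interval 0.44 to 1.53). That call ended with any of the 6 libraries of WT and M4 left out (0.83 to 1.07, adjusted p = 0.0787 to 0.156), as it did with several other settings. The log2-fold changes in M2 (0.47, interval -0.07 to 1.01, adjusted p = 0.166), M3 (0.47, interval -0.08 to 1.01, adjusted p = 0.314) and M1 (0.14, interval -0.41 to 0.68, adjusted p = 0.825) did not pass.

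Among the lines, cp-rbcS was higher in M4 than in M1 by 0.85 (SE 0.25, adjusted p = 0.0364 by limma). That call was kept without M1 replicate 2 (1.08) and ended without M1 replicate 1 (0.62), M1 replicate 3 (0.85) or any M4 library (0.76 to 0.90). M2 and M1 differed by 0.34 (adjusted p = 0.358) and M4 and M3 by 0.52 (adjusted p = 0.149). The means ran M4, M2, M3, M1 and WT, and again no neighbours in that order passed the test (adjusted p = 0.111, 0.994, 0.539 and 0.825).

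NO01G02280, the nuclear gene marked as Rubisco, also fell in M2, by a much smaller proportion. Its TMM-normalized TPM was 869.8, 912 and 837 in the WT, 772, 704 and 625 in M1, and 594, 662 and 651 in M2. In M3 it was 782, 684 and 736, and in M4 746, 754 and 850.3. All libraries of M1, M2 and M3 lay below every WT library, and M4 overlapped with the WT in 1 library. The mean in M2 (636 ± 36.8, SD, n = 3) was 72.8% of that in the WT (873 ± 37.8), and the means of M1, M3 and M4 were 80.2%, 84.1% and 89.8%. The log2-fold change in M2 was -0.46 (SE 0.09, adjusted p = 0.00171 by limma, interval -0.64 to -0.27), and it was -0.28 after quantile normalization (adjusted p = 0.0219).

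In M1 the log2-fold change of NO01G02280 was -0.32 (interval -0.51 to -0.14, adjusted p = 0.0835 by limma), which passed without M1 replicate 1 (-0.39, adjusted p = 0.0420). The change was -0.25 in M3 (interval -0.44 to -0.06, adjusted p = 0.142) and -0.16 in M4 (interval -0.34 to 0.03, adjusted p = 0.318). The clones did not differ by more than their spread, with -0.14 for M2 against M1 (interval -0.32 to 0.05) and 0.09 for M4 against M3 (interval -0.09 to 0.28). M4 was higher than M2 by 0.30 (adjusted p = 0.0127), which did not pass without M2 replicate 1 (0.25, adjusted p = 0.0563) or M4 replicate 3 (0.24, adjusted p = 0.0563). The means ran WT, M4, M3, M1 and M2, with adjusted p = 0.318, 0.460, 0.715 and 0.273 between neighbours.

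Read against all 9440 genes tested, the calls of the members stand as follows. In M2, 2 of 3 members were called lower and 0 higher, where 18.2% of all genes were called lower and 16.5% higher. In M4, 1 of 3 was called higher and 0 lower (all genes 1.64% and 3.69%). In M1, limma called 0 of 3 (all genes 1.13% lower and 0.593% higher), with 1 member at an unadjusted p under 0.05, and in M3 also 0 of 3 (0.339% and 0.646%), with 2 members at an unadjusted p under 0.05. Between lines, 1 of 3 members passed in M2 against M1 (25.9% of all genes), 1 in M4 against M3 (25.6%), 1 in M4 against M1 (17.3%) and 2 in M4 against M2 (45.9%). In M3 against M1 (3.5%) and in M3 against M2 (21% of all genes) limma called 0 of 3, with 0 and 2 at an unadjusted p under 0.05. A call is thus a common event in the comparisons of M2, and the share of members called there is no result about these genes.

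Taking the clones of a knockout together, the mean of M1 and M2 was lower than the WT for NO01G02280 (-0.39, SE 0.07, adjusted p = 0.00401 by limma) and for cp-rbcL (-0.72, SE 0.24, adjusted p = 0.0485). With 22% of all genes called, 2 of 3 members passed. The value of cp-rbcL averages lines that differed from each other, and its call ended with 8 of the 9 libraries left out in turn (-0.97 to -0.51 over all 9, the call kept without WT replicate 1). The mean of M3 and M4 gave -0.20 for NO01G02280 (adjusted p = 0.314), -0.20 for cp-rbcL (0.790) and 0.73 for cp-rbcS (0.236). Here limma called 0 of 3 members, with 2 at an unadjusted p under 0.05, and 0.138% of all genes.

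Across the groups, cp-rbcL moved with the rest of its genome. Over the 15 libraries, its log2 level correlated with the log2 sum of the other 123 chloroplast genes (Pearson r = 0.901, permutation p = 1e-05, the smallest that 100000 permutations can give, adjusted p = 6e-05 over 6 relations; Spearman rho = 0.886, p = 6e-05). These permutations treat all 15 libraries as independent, which cultures of 1 clone are not. The pooled p-values here and below therefore do not take the grouping into account. The M2 libraries form a cluster at the low end. Without the 2 libraries farthest from the median, M2 replicates 2 and 3, r was 0.853, and without all 3 M2 libraries it was 0.765. Within groups, on deviations from the group means, r was 0.673 (exact permutation p = 0.112, adjusted p = 0.674), so a relation between cultures of the same clone was not shown.

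For cp-rbcS the same relation gave r = 0.228 (permutation p = 0.411, adjusted p = 0.616; rho = 0.229, p = 0.410) and -0.19 within groups. For NO01G02280 it gave r = 0.562 (permutation p = 0.0289, adjusted p = 0.0578; rho = 0.554, p = 0.0343), and r was 0.446 without the 2 farthest libraries, 0.152 without M2 and 0.0758 within groups. The pooled value for the nuclear gene therefore rests on the M2 libraries. cp-rbcL and cp-rbcS, 208 bases apart, gave r = 0.0272 (permutation p = 0.923) and rho = 0.0607 (permutation p = 0.831). The low depth of cp-rbcS limits its correlations, so the absence of a relation is not shown. NO01G02280 and cp-rbcL gave r = 0.631 (permutation p = 0.0125, adjusted p = 0.0374; rho = 0.536, p = 0.0419, adjusted p = 0.0838), which was 0.516 without the 2 libraries farthest from the median (M2 replicate 1 and WT replicate 2), 0.300 without M2 and 0.161 within groups. NO01G02280 and cp-rbcS gave r = -0.12 (permutation p = 0.663; rho = -0.0750, p = 0.792).

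**Figure D2:**
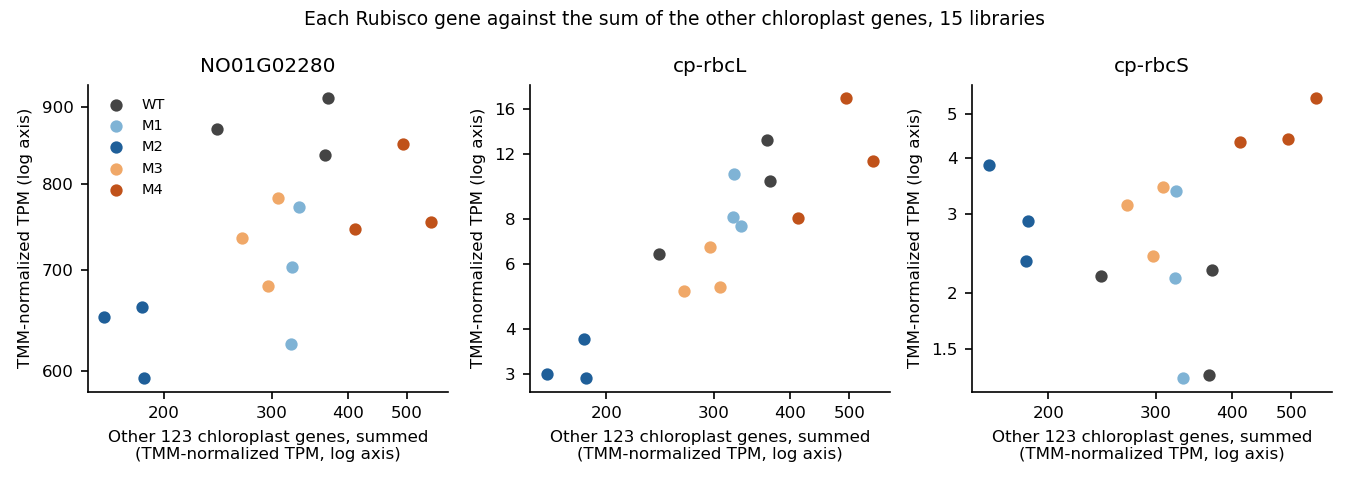
Level of each Rubisco gene (TMM-normalized TPM, log axis) against the summed level of the other 123 chloroplast genes (same unit, log axis) in 15 libraries, coloured by group. cp-rbcL rises along the diagonal (r = 0.901), cp-rbcS does not (r = 0.228), and for NO01G02280 the M2 libraries at the lower left carry the relation (r = 0.562 with them and 0.152 without).

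Setting the members against the other chloroplast genes asks whether they changed by more than the genome they belong to. The log2 of cp-rbcL over the sum of the other chloroplast genes (pseudocount 1) was -4.93 ± 0.20 (SD, n = 3) for the WT, -5.08 ± 0.24 for M1 and -5.38 ± 0.15 for M2, and -5.46 ± 0.18 for M3 and -5.24 ± 0.41 for M4. All M2 and M3 libraries lay below all WT libraries, but the 5 groups did not differ in the exact permutation F test (p = 0.155), which gave p = 0.0271 without M4 replicate 3. As a share of the chloroplast sum, cp-rbcL made up 2.54% to 3.44% in the WT and 1.54% to 1.98% in M2. For cp-psbA, the D1 protein of photosystem II and the most abundant chloroplast transcript here, that share was 28.0% to 38.5% over all libraries.

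The log2 of cp-rbcS over the other chloroplast genes differed between the groups (exact permutation F test, p = 0.00602, adjusted p = 0.00753). It was -6.80 ± 0.53 (SD, n = 3) for the WT, -6.69 ± 0.48 for M1 and -5.46 ± 0.38 for M2, and -6.19 ± 0.22 for M3 and -6.40 ± 0.12 for M4. In M2 all 3 libraries lay above every other library, 1.34 above the WT and 1.23 above M1. For 3 libraries against 3 the smallest exact p is 0.10, which these pairs reached. As a share of the chloroplast sum, cp-rbcS made up 0.344% to 0.865% in the WT and 1.24% to 2.32% in M2.

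The balance of the subunit genes therefore differed between the lines. The log2 ratio of cp-rbcL to cp-rbcS was 1.22, 1.78 and 2.61 in the WT, 1.91, 1.40 and 1.52 in M1, and 0.0133, 0.502 and -0.27 in M2. In M3 it was 0.482, 1.17 and 0.550, and in M4 0.758, 0.963 and 1.74. All M2 and M3 libraries lay below every WT and M1 library. The groups differed in the exact permutation F test (p = 0.00537, adjusted p = 0.00753), and the test passed with each of the 15 libraries left out (p = 0.00185 to 0.0238). Without a pseudocount, the ratio of the values had a mean of 5.81 ± 3.71 (SD, n = 3) for the WT, 4.25 ± 1.45 for M1 and 1.13 ± 0.418 for M2, and 1.96 ± 0.691 for M3 and 2.61 ± 1.09 for M4. The pairs M2 and WT (-1.79), M2 and M1 (-1.53), M3 and WT (-1.13) and M3 and M1 (-0.88) on the log2 scale each reached the smallest exact p of 0.10. So did M4 and M2, with M4 higher by 1.07 and no overlap. The ratio has cp-rbcS, the gene of fewest reads, in its denominator, and its spread in the WT is wide.

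**Figure D3:**
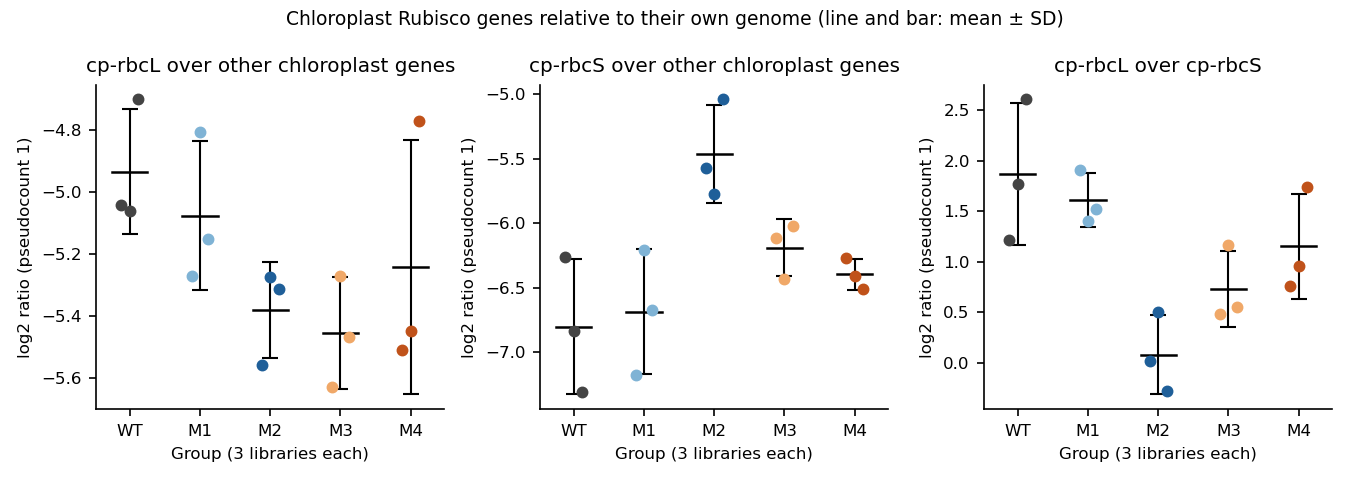
Log2 ratio (pseudocount 1) of cp-rbcL and of cp-rbcS to the summed other chloroplast genes, and of cp-rbcL to cp-rbcS, by group. Points are libraries and the line and bar are the mean ± SD of 3: in M2 the ratio of cp-rbcS is the highest (-5.46) and the ratio of cp-rbcL to cp-rbcS the lowest (0.0802) of the 5 groups.

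The same was asked with limma after the chloroplast and the nuclear genes were each scaled to their own total. For the chloroplast genes that total left out cp-rbcL and cp-rbcS, and mitochondrial genes were not scaled. The change of cp-rbcL in M2 was then -0.61 (SE 0.21, adjusted p = 0.0444), less than the -1.32 before scaling and still past the test. cp-rbcS, not called before, was higher in M2 than in the WT by 1.15 (SE 0.29, adjusted p = 0.00908) and higher than in M1 by 1.04 (adjusted p = 0.0206). In this fit, 1327 of 9440 genes were called lower and 2050 higher in M2 than in the WT, with a median log2-fold change of 0.09. Of the other chloroplast genes, 6 were called lower and 6 higher, and cp-tufA (2.05) and cp-rps10 (2.01) rose more than cp-rbcS. The rise of cp-rbcS in M4 no longer passed (0.51, adjusted p = 0.350). The differences of cp-rbcL between clones also fell below the test, at -0.47 for M2 against M1 (adjusted p = 0.127), 0.29 for M4 against M3 (0.364) and 0.36 for M4 against M2 (0.198). For NO01G02280, scaled to the nuclear total, the fall in M2 was -0.36 (SE 0.07, adjusted p = 0.00259). StringTie TPM without this scaling gave -0.36 as well, so it is no separate check.

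The other chloroplast genes give the setting for these values. Of 123 such genes, 66 had a mean of at least 1 and were tested. In M2, 16 were lower (24.2%) and 2 higher (3.03%) than the WT, beside 18.2% and 16.5% of all genes tested, and the median log2-fold change was -0.57, beside a median near 0 over all 9440 genes (-4.48e-04). With libraries left out in turn, 11 to 21 were lower, and without WT replicate 1, the WT library of the lowest chloroplast share, 4 were higher. After scaling to the chloroplast total, 6 were lower and 6 higher, with a median of -0.14. Of all 9440 genes, 1327 were called lower and 2050 higher in that scaled fit. The medians in the other lines were 0.09 in M1 (limma called 0 of 66, with 0 at an unadjusted p under 0.05), -0.09 in M3 (0 called, 8 at an unadjusted p under 0.05) and 0.37 in M4 (2 higher and 0 lower). Over all genes tested, 1.13% were lower and 0.593% higher in M1, 0.339% and 0.646% in M3, and 3.69% and 1.64% in M4. Among the 68 tested chloroplast genes including the members, cp-rbcL ranked 17th, 12th, 10th and 25th from the lowest log2-fold change in M1 to M4, and cp-rbcS 42nd, 62nd, 62nd and 64th.

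Genes of photosystem II, which splits water, had the lowest median in M2 (-1.16, 7 of 12 tested lower and 0 higher), beside 18.2% of all genes lower. cp-psbV-2, named for the cytochrome c550 of that complex, was lowest at -2.49 (SE 0.51, adjusted p = 0.00300 by limma). Its level is low, with a mean TMM-normalized TPM of 5.67 in the WT and 0.186 in M2. The share called lower was below that of all genes for photosystem I and ATP synthase (14.3% each) and for the ribosomal proteins (9.52%), so these counts are given as values only. For photosystem I the median was -0.54 (1 of 7 lower), and the gene that was lower was cp-psaA, a reaction centre core protein (-1.74, adjusted p = 8.45e-04). The genes of cytochrome b6f and its electron carriers had a median of -0.61 (2 of 5 lower), and those of ATP synthase -0.68 (1 of 7 lower), with cp-petJ-2 (-1.67) and cp-atpF (-1.49) the lowest. Levels were low here too: means in the WT and in M2 were 6.26 and 1.11 for cp-psaA, 4.32 and 0.533 for cp-petJ-2, and 4.57 and 1.03 for cp-atpF. Of 21 tested ribosomal protein genes, 2 were lower and 1 higher (median -0.52), and the one that was higher was cp-rps10 (1.24, adjusted p = 0.00933). cp-tufA, the elongation factor Tu of chloroplast translation, was higher as well (1.22, adjusted p = 0.00104), and cp-dnaK, an Hsp70 chaperone, was lower (-2.16, adjusted p = 1.70e-04). The chlorophyll synthesis genes cp-chlL and cp-chlN, the pair tested, gave -0.58 and -0.69 and neither passed, and the 1 tested RNA polymerase gene, cp-rpoA, gave -0.24. Of the 30 tested mitochondrial genes, 1 was lower in M2 and 0 were higher, with a median of 0.06.

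**Figure D4:**
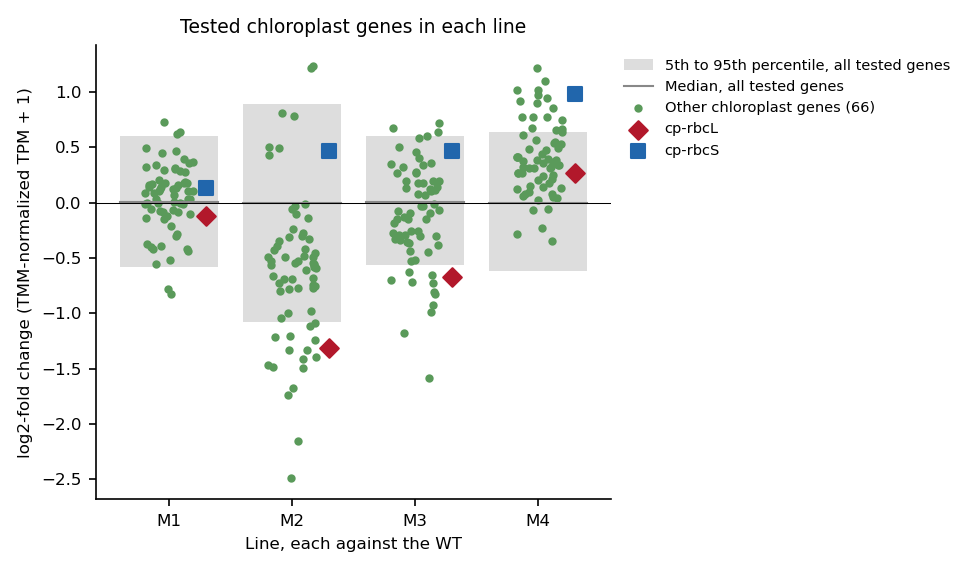
Log2-fold changes against the WT of the tested chloroplast genes in each line (green points, 66 genes), with cp-rbcL (diamond) and cp-rbcS (square) set apart, over the 5th to 95th percentile (grey) and the median of all 9440 tested genes. In M2 cp-rbcL (-1.32) lies among the lower chloroplast genes and cp-rbcS (0.47) among the few above 0, and in M4 most chloroplast genes, cp-rbcS (0.99) included, lie above 0.

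Of the genes around cp-rbcL and cp-rbcS, only cp-psbA and cp-chlN could be tested, and whether this stretch moved together was not tested. cp-psbA, whose 3′ end lies 368 bases beyond that of cp-rbcS on the opposite strand, fell in M2 from 122 ± 36.3 to 54.7 ± 4.27 TMM-normalized TPM (SD, n = 3; log2-fold change -1.09, adjusted p = 8.63e-04 by limma). cp-chlN, the next gene beyond it, had a mean of 1.19 over the libraries and gave -0.69 (adjusted p = 0.125). On the other side, cp-thiS was listed at 0 in 12 libraries and cp-petA had a mean of 0.388, so neither was tested. The library kit does not mark strand, and reads of cp-rbcS and of transcripts that run on from cp-rbcL cannot be told apart. cp-cbbX, the gene of the red-type Rubisco activase, had a mean of 0.615 and was listed at 0 in 2 libraries. Its values reached 0.706 at most in the WT and 0.200 in M2, and lay between 0.477 and 1.015 in M1, 0.0430 and 0.666 in M3, and 0.761 and 2.025 in M4. They were too low for the test.

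On chromosome 1, NO01G02280 ends where NO01G02270 ends. The genes face each other tail to tail with 0 bases between them, and NO01G02270 (plus strand, 589417 to 594695) had a mean of 78.8 TMM-normalized TPM. Against the WT it moved the other way in M1, M2 and M3. In M4 both genes were lower (log2-fold changes -0.21 and -0.16), and neither passed. NO01G02270 was 69.5, 67.5 and 69.8 in the WT, 75.6, 85.2 and 92.2 in M1, and 109, 107 and 105 in M2. In M3 it was 80.0, 70.6 and 71.4, and in M4 59.7, 62.6 and 56.4. All M2 libraries lay above, and all M4 libraries below, those of every other group. NO01G02270 rose in M2 by 0.63 on the log2 scale (SE 0.07, adjusted p = 9.64e-05 by limma), and was higher in M2 than in M1 by 0.35 (adjusted p = 0.00610) and lower in M4 than in M3 by 0.31 (log2-fold change -0.31, adjusted p = 0.0117). Without strand, reads across the common end of these genes cannot be told apart. NO01G02290, whose start lies 96 bases from the start of NO01G02280 (plus strand, 596715 to 599004), gave 0.25 in M2 (adjusted p = 0.0853).

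**Figure D5:**
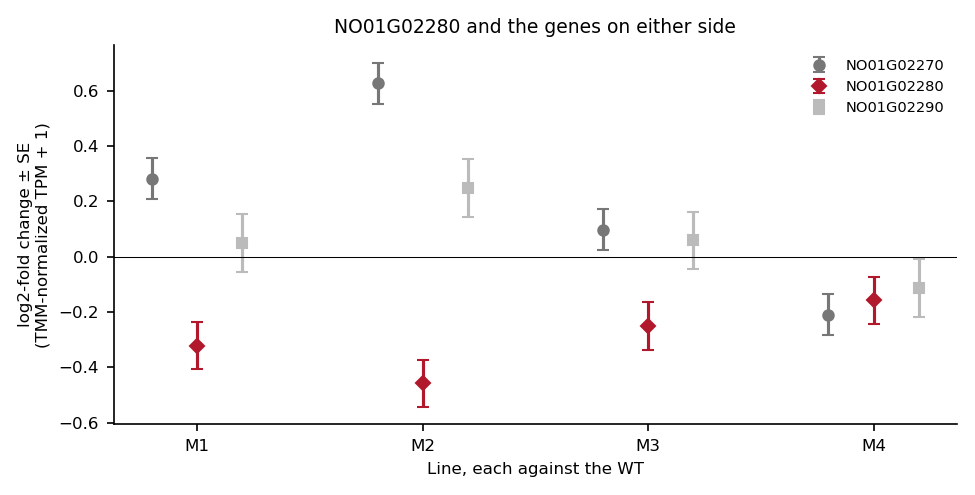
Log2-fold change ± SE (limma, n = 3 per group) of NO01G02280 and of the genes on either side in each line against the WT. In M2 NO01G02270 was higher (0.63) and NO01G02280 lower (-0.46), and NO01G02290 did not pass the test in any line.

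Patterns most like each member were ranked by Pearson r of log2(value + 1) over the 15 libraries among 9439 other tested genes, as a description, since the libraries, their depth and their group means are shared by all genes. For NO01G02280 they were the nuclear genes NO19G02100 (r = 0.951), NO05G04440 (0.947), NO12G00090 (0.946), NO02G02340 (0.928) and NO01G02380 (0.921). On deviations from the group means these gave 0.798 to 0.908. That is no separate support, since the genes were chosen by r over the same libraries. All 5 were lower in M2, from -0.38 (NO01G02380, adjusted p = 0.00161 by limma) to -1.12 (NO19G02100, adjusted p = 3.80e-04). They were chosen for likeness to a gene that fell there, so this is no separate result. Of all genes tested, 18.2% were lower in M2. For cp-rbcL the most alike were cp-clpC-I-2, a Clp protease chaperone gene (0.947), cp-psbB (0.945), cp-psaA (0.938), cp-dnaK (0.937) and the nuclear gene NO15G03040 (0.935), and the next chloroplast gene was cp-psbD (0.912). psbB and psbD encode core proteins of photosystem II. For cp-rbcS the highest values belonged to nuclear genes, NO21G01540 (0.824), NO09G00840 (0.807), NO13G02310 (0.793), NO16G02510 (0.780) and NO15G03060 (0.769). The chloroplast genes most like it, cp-rpl32 (0.624), cp-rpl21 (0.602), cp-rpl27 (0.480), cp-psbF (0.451) and cp-psbZ (0.420), were less alike. On deviations from the group means, the nuclear genes gave 0.379 to 0.860 and these chloroplast genes 0.0603, 0.256, 0.0480, 0.757 and 0.705 in the same order. The genes most like cp-rbcL gave 0.643 to 0.881.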

How the data were processed

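RNA was extracted with TRIzol and sequenced as 150-bp paired reads from NEBNext Ultra RNA libraries. The paper names nf-core/rnaseq and STAR on IMET1v2, without versions in the sources used here. The main table deposited by the authors is a matrix of TMM-normalized TPM, treated as a score because its sums differ between libraries. It equals the TPM in the StringTie tables that the authors deposited, times 1 factor per library (0.947 to 1.05). Those deposited tables also hold FPKM and coverage (mean depth per base, a signal not scaled across libraries).

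On log2(value + 1), limma 3.58.1 (R 4.3.3) tested the 9440 genes whose mean reached 1, in 1 fit of group means over 15 libraries with a variance trend. Adjustment was by Benjamini-Hochberg over all genes tested, with a threshold of 0.05. The paper's count-based test could not be run on these values. Chloroplast shares and ratios were tested with exact permutation F tests over 5 groups (1401400 splits) and 2-sided exact tests of 3 against 3. Correlations used 100000 permutations (2-sided), and 7776 exact ones within groups. Python 3.11.15 and numpy 2.4.6 were used, and the procedures were tested on simulated data.

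Same-numbered libraries of different groups did not deviate together (correlations -0.07 to 0.09 over 30 pairs), so no block was used. Members and gene lists were chosen with earlier results of these data known. Named genes were the members, their neighbours, cp-cbbX, the 5 genes most like each member (for chloroplast members also among chloroplast genes) and the lowest and highest gene of each list in M2. Lists were formed by name prefix. Names and positions of 157 of 160 organelle genes were the same in a RefSeq table. Alternatives were other pseudocounts, filters, normalizations, units and limma settings, the comparison's own libraries, scaling within each genome (nuclear and chloroplast) and each library left out. The other data of the study were not analysed here.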

Additional observations from a re-analysis of the deposited data

Results flagged for a closer look

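For 5 differences between lines, the test of the difference itself passed, so the effect of one line on a Rubisco gene differed from that of another (log2 scale, limma). Of all genes tested, 25.9% passed in M2 against M1, 25.6% in M4 against M3, 17.3% in M4 against M1 and 45.9% in M4 against M2. How many members passed is therefore no result about these genes. cp-rbcL was lower in M2 than in M1 (-1.20, SE 0.27, adjusted p = 0.00815), although both lines carry a knockout of NO08G00280, and all 3 M2 libraries lay below all 3 of M1. cp-rbcL was higher in M4 than in M3 (0.94, SE 0.27, adjusted p = 0.0264), both NO06G02500 knockouts, again without overlap, and higher in M4 than in M2 (1.59, SE 0.27, adjusted p = 5.96e-04). cp-rbcS was higher in M4 than in M1 (0.85, SE 0.25, adjusted p = 0.0364), and NO01G02280 was higher in M4 than in M2 (0.30, SE 0.09, adjusted p = 0.0127). With 6 libraries left out in turn, the call for M4 against M3 ended in 4, that of cp-rbcS in 5 and that of NO01G02280 in 2, and the other calls held. The chloroplast share differed in the same direction between these lines, and after scaling to the chloroplast total none of the 4 chloroplast differences passed (-0.47, 0.29, 0.36 and 0.40), while that of NO01G02280 did (0.25, adjusted p = 0.0145).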

How the results depend on the processing

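Of 781 alternative values, 729 kept their side of the threshold or, for counts, stayed near the main count, and none reversed a call. Some values that passed in neither fit changed sign, such as cp-rbcL in M4 (0.27, and -0.25 after scaling within each genome). The calls of NO01G02280 and cp-rbcL in M2 held under every alternative run, at -0.46 to -0.28 and -1.53 to -0.61 before leaving out libraries. The rise of cp-rbcS in M4 (0.99) did not pass with pseudocount 0.1 (1.29), quantile normalization (0.95), the libraries of the comparison alone (0.99), a replicate block (0.99, adjusted p = 0.0727 by limma) or scaling within each genome (0.51), or with any library left out (0.83 to 1.07). The difference of cp-rbcS between M4 and M1 also lost its call with the replicate block (0.85, adjusted p = 0.0603), the libraries of the comparison alone (0.85, adjusted p = 0.117) and scaling within each genome (0.40, adjusted p = 0.379), and the block changed no other call. The fall of cp-rbcL in the mean of M1 and M2 (-0.72) did not pass with pseudocount 5 (-0.46), a mean of at least 5 (-0.72), StringTie TPM (-0.67), FPKM (-0.56), its own libraries alone (-0.72) or scaling within each genome (-0.37), and was -0.97 to -0.51 with libraries left out. For M4 against M3, cp-rbcL (0.94) did not pass with those libraries alone (0.94) or scaling (0.29), and was 0.69 to 1.19 with libraries left out. Scaling also ended the call for M2 against M1 (-0.47) and gave cp-rbcS calls in M2 against the WT (1.15) and against M1 (1.04). NO01G02280 in M1 was -0.39 to -0.24 with libraries left out. The exact permutation F test of cp-rbcL over the other chloroplast genes gave p = 0.0271 to 0.308 with libraries left out. The other chloroplast genes lower in M2 (16) numbered 6 of 10 tested with a mean of at least 5, 6 after scaling and 11 to 21 with libraries left out, and those higher (2) numbered 1, 6 and 2 to 4. cp-rbcS lies under the filter of a mean of at least 5 and has no value there. The causes of these changes were not tested. Depth limits cp-rbcS most, at the bases of 4.80 to 21.1 reads a library.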
